A study of Mus musculus with 6 samples.

Results

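Mast cells and basophils keep ready-made proteases, histamine and proteoglycan in secretory granules and carry the receptor for IgE on their surface. The genes described here encode those granule and receptor components: Gzmb, Mcpt8, Cpa3, Cma1, Mcpt4 and Tpsb2 for proteases, Hdc for the enzyme that makes histamine, and Fcer1a and Ms4a2 for subunits of the IgE receptor. They were taken as a fixed set of 9 symbols, and every non-control array probe whose accession mapped to one of them was used. This gave 10 probes, 2 for Cma1 and 1 for each other gene, out of 41174 probes and 18217 named genes on the array. The mapping rule itself used no measured value.

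The cultures fell into 2 groups, labelled p45-/- and WT. The p45-/- label means that they lack p45, the NF-E2 subunit encoded by Nfe2, whose expression is restricted to certain blood lineages. Each group held 3 samples, and all 6 were mouse megakaryocytes of strain C57BL/6, grown from E13.5 fetal liver, at midgestation. The series is described as asking how expression differs between p45-/- and WT primary megakaryocytes. Megakaryocytes are the bone marrow and fetal liver cells that shed platelets, and they share a progenitor and several transcription factors, GATA2 among them, with the mast cell and basophil lineages. The culture conditions, the extent of the Nfe2 deletion and the pooling of embryos are not given in the sources used here. The labels name cultured megakaryocytes as the source, but their extraction text names embryos as the origin of the RNA.

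When mast cells or basophils meet an allergen bound to IgE, the receptor signals through the cytoplasmic tails of its beta and gamma chains, and the granules are released. Serglycin, a proteoglycan, binds the positively charged proteases and histamine inside the granule. Mouse mast cells of different tissues hold different sets of chymases and tryptases, whereas basophils are marked by the protease that Mcpt8 encodes.

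Each sample was hybridised to 1 single-colour Agilent array. The 75th percentile of the processed intensity was 135, 407 and 589 on p45-/- arrays 1 to 3, against 339, 583 and 575 on WT arrays 1 to 3. Levels below are log2 intensities relative to that percentile, so 0 marks the percentile itself. The first p45-/- array stood apart: it correlated with the others at 0.786 to 0.887 across the probes tested, against 0.939 to 0.983 among the remaining 5. The arrays came from 2 slides, 1 holding replicate 3 of each group and the other replicates 1 and 2. Arrays of the same replicate number are called pairs here, a pairing taken from the data that the labels do not state. The probe for Nfe2 differed by -0.17 between p45-/- and WT arrays (SE 0.56, limma adjusted p = 0.922), and whether it lies inside the deleted part is not known here, so it does not check the genotype. All 14 megakaryocyte markers examined (Pf4, Itga2b, Gp9 and others) were tested, each being well above background on every array of at least 1 of the groups, with summed levels of 958 to 2013 times the percentile on p45-/- arrays and 1194 to 2189.6 times on WT arrays. The samples are bulk RNA, so fewer granule-bearing cells and less RNA per cell cannot be told apart in any value below.

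Gzmb, Mcpt8, Cma1 and Mcpt4 are neighbours in the granzyme and chymase cluster on chromosome 14. Cpa3 lies on chromosome 3, Hdc on chromosome 2, Fcer1a on chromosome 1, Ms4a2 on chromosome 19 and Tpsb2 on chromosome 17. Of the 9 genes, 8 had an entry in the RefSeq promoter table (GRCm38.p6). The bases ahead of the start site are shown 5′ to 3′ for 3 genes that were lower in every replicate pair, for Fcer1a, which was higher in every pair, and for Mcpt4, which went neither way. Bases that the annotation places inside the gene were left out. Capitals mark AGATAA or TGATAA on either strand, the letters that GATA factors are known to prefer, and TGAGTCA, the core shared by AP-1 and NF-E2 type elements.
Gzmb chr14:56262335-56262584, minus strand: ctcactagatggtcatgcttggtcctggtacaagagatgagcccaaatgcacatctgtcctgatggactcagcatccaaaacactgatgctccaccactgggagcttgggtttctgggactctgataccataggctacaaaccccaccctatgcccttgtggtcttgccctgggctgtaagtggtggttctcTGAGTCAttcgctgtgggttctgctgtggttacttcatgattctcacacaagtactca
Cpa3 chr3:20242210-20242431, minus strand: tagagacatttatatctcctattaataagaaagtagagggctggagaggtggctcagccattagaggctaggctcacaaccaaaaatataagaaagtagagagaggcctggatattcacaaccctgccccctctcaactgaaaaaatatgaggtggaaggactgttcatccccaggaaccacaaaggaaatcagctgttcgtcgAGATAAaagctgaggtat
Ms4a2 chr19:11623791-11623969, minus strand: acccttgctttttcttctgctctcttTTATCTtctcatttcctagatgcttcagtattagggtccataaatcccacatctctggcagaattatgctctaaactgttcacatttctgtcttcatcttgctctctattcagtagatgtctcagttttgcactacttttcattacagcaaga
Fcer1a chr1:173227233-173227479, minus strand: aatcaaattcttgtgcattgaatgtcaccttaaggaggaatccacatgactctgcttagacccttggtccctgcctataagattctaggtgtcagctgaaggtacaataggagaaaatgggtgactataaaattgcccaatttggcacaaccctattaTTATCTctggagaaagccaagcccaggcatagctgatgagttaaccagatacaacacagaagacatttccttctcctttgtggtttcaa
Mcpt4 chr14:56062311-56062560, minus strand: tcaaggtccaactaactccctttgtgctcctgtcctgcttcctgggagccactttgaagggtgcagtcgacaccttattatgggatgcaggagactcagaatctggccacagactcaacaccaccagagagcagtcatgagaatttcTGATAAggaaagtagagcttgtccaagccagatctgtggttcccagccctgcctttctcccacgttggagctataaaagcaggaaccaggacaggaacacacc
Over the full 250 bases before the start, AGATAA stood in the windows of Cpa3, Ms4a2 and Fcer1a, with 3 matches in that of Ms4a2, of which 2 fall in the bases left out above. It stood in 9.99% of all 32851 windows of the table. TGATAA was found for Mcpt4 and in 7.94% of all windows. Of the 2 forms of the longer NF-E2 element that were searched, neither was in any of the 8 member windows, and they were in 0.134% and 0.116% of all windows. The E-box letters CANNTG were in 6 of the 8, against 66.2% of all windows. The shorter TGAGTCA is part of both forms of the longer element, in 1 of them on the opposite strand. It was searched after the sequences had been seen, and was in the Gzmb window and in 4.46% of all. These matches were searched on both strands and describe letters, not bound sites. The genes that were lower and the one that was higher in p45-/- cultures both included windows with AGATAA.

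Among the proteases, the mean levels of Gzmb, Mcpt8 and Cpa3 were at least 2-fold lower on p45-/- arrays, and each was lower in all 3 replicate pairs. Without p45-/- array 1, only Gzmb remained 2-fold lower, at -1.67, with Mcpt8 at -0.94 and Cpa3 at -0.36. Hdc and Ms4a2 were also lower in all pairs, by less than 2-fold in the mean. Fcer1a was higher in all pairs, and Cma1, Mcpt4 and Tpsb2 went both ways. No member passed the adjusted threshold of 0.05 in limma's fit over the 23959 probes tested, and neither did any other probe, so the background is 0%. Without adjustment, 3.58% of the probes tested were lower and 2.55% higher at p below 0.05, and 1 member probe, Gzmb, was among the lower ones. Of the 9 member genes, 5 were lower in all 3 pairs, where 25.7% of the probes tested were, and 1 was higher in all 3 pairs, where 20.8% were. A mean at least 2-fold lower was found for 3 of the 9 genes and for 3.74% of the probes tested. That count of genes was 1 without p45-/- array 1 (3.56% of the probes), 2 without WT array 2 (4.13%) or WT array 3 (4.27%) and 4 without any 1 of the others. Both a 2-fold lower mean and a lower value in all pairs were found for those 3 genes and for 807 probes (3.37%). The members that passed the filter on dim probes include Gzmb and Ms4a2, which passed only through their WT arrays, and Tpsb2, which passed only through its p45-/- arrays.

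**Figure D1:**
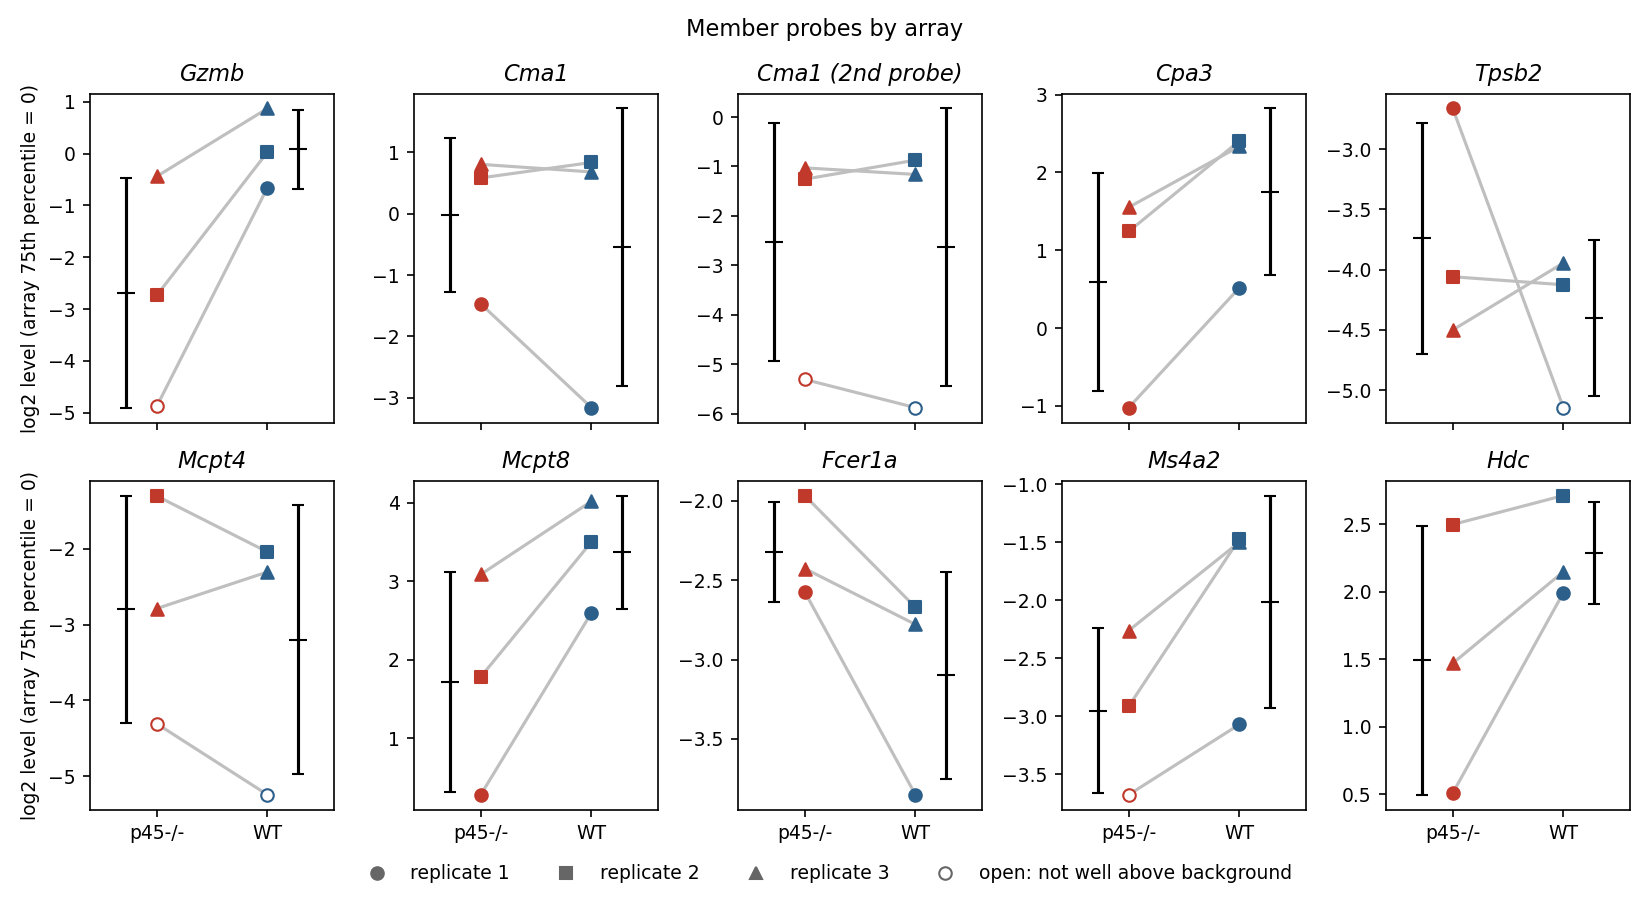
Log2 level of each of the 10 member probes on each array, relative to the array's 75th percentile (vertical axis, a scale of its own in each panel), with p45-/- at the left (red) and WT at the right (blue). Lines join arrays with the same replicate number, black bars give the mean ± SD of 3 arrays, and open symbols were not well above background; Gzmb, Mcpt8, Cpa3, Ms4a2 and Hdc slope up to WT in all 3 pairs, and Fcer1a slopes down in all 3.

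Gzmb encodes granzyme B, a serine protease of cytotoxic lymphocytes that mouse mast cells and basophils can also make. Its levels were -4.88, -2.74 and -0.44 on p45-/- arrays 1 to 3, against -0.66, 0.027 and 0.87 on WT arrays 1 to 3 (NM_013542). The first p45-/- value was not well above background, and the third p45-/- value lay above the first WT value, so the groups overlap. The mean was -2.68 ± 2.22 on p45-/- arrays and 0.080 ± 0.77 on WT arrays (SD, n = 3 each), the p45-/- mean including the value that is only a bound. The difference of -2.76 had a 95% interval of -5.32 to -0.21 and a limma adjusted p of 0.709. Without the first p45-/- array it was -1.67, and with normexp background correction it was -1.17.

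Mcpt8 encodes a granule protease used as a marker of mouse basophils, and was well above background on every array. Its levels were 0.28, 1.78 and 3.09 on p45-/- arrays, against 2.60, 3.50 and 4.02 on WT arrays (NM_008572). Each p45-/- array was below the WT array of the same number, but p45-/- array 3 exceeded WT array 1. The means of 1.72 ± 1.40 in p45-/- and 3.37 ± 0.72 in WT (SD, n = 3 each) differ by -1.65 (SE 0.74, limma adjusted p = 0.709), with a 95% interval of -3.43 to 0.12. Without p45-/- array 1 the difference was -0.94.

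Cpa3 encodes mast cell carboxypeptidase, an exopeptidase of mast cell and basophil granules. It stood at -1.02, 1.24 and 1.55 on p45-/- arrays, against 0.52, 2.40 and 2.33 on WT arrays (NM_007753). Replicate 1 was lowest in both groups, and the groups overlap. The mean was 0.59 ± 1.40 in p45-/- and 1.75 ± 1.07 in WT (SD, n = 3 each), a difference of -1.16 (SE 0.82, limma adjusted p = 0.709). It was -0.36 without p45-/- array 1 and -1.78 without WT array 1.

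Hdc encodes histidine decarboxylase, which makes histamine from histidine. Its levels were 0.51, 2.50 and 1.47 on p45-/- arrays, against 1.99, 2.71 and 2.15 on WT arrays (NM_008230). The second p45-/- array lay inside the WT range and the others below it. The difference of the means was -0.79 (SE 0.53, limma adjusted p = 0.709), from 1.49 ± 0.99 in p45-/- and 2.29 ± 0.38 in WT (SD, n = 3 each). It was -0.30 without p45-/- array 1 and -1.30 without p45-/- array 2.

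The IgE receptor subunits Fcer1a and Ms4a2 differed in opposite directions. Fcer1a encodes the alpha chain that binds IgE. Its levels were -2.57, -1.97 and -2.43 on p45-/- arrays, against -3.85, -2.67 and -2.78 on WT arrays (NM_010184), so every p45-/- value was above every WT value. The mean was -2.32 ± 0.32 in p45-/- and -3.10 ± 0.65 in WT (SD, n = 3 each), and the difference of 0.78 had a 95% interval of -0.19 to 1.75 and a limma adjusted p of 0.709. An exact two-sided permutation test gave p = 0.1, the smallest that 3 arrays against 3 allow. Groups that do not overlap in this direction were found for 4.47% of the probes tested. Fcer1a was the only member with groups apart in either direction, where 13.4% of the probes tested were. The difference kept its sign under median scaling and quantile normalization, at 0.27 and 0.38, and was 0.40 without WT array 1. Before scaling, the intensities in pair 1 were 22.7 in p45-/- and 23.5 in WT, so the sign of that pair depends on the scaling.

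Ms4a2 encodes the beta chain, which amplifies the receptor's signal. Its levels were -3.67, -2.91 and -2.26 on p45-/- arrays, against -3.07, -1.47 and -1.50 on WT arrays (NM_013516). The first p45-/- value was not well above background. The values of p45-/- arrays 2 and 3 were above that of WT array 1, so the groups overlap. The means of -2.95 ± 0.71 in p45-/- and -2.01 ± 0.92 in WT (SD, n = 3 each) differ by -0.94 (SE 0.57, limma adjusted p = 0.709), and under normexp correction the difference was -0.0069. It was -0.57 without p45-/- array 1 and -1.47 without WT array 1. Fcer1g, the gamma chain that several other Fc receptors also use, had a mean of 5.86 in p45-/- and 6.53 in WT, a difference of -0.67 (limma adjusted p = 0.709).

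**Figure D2:**
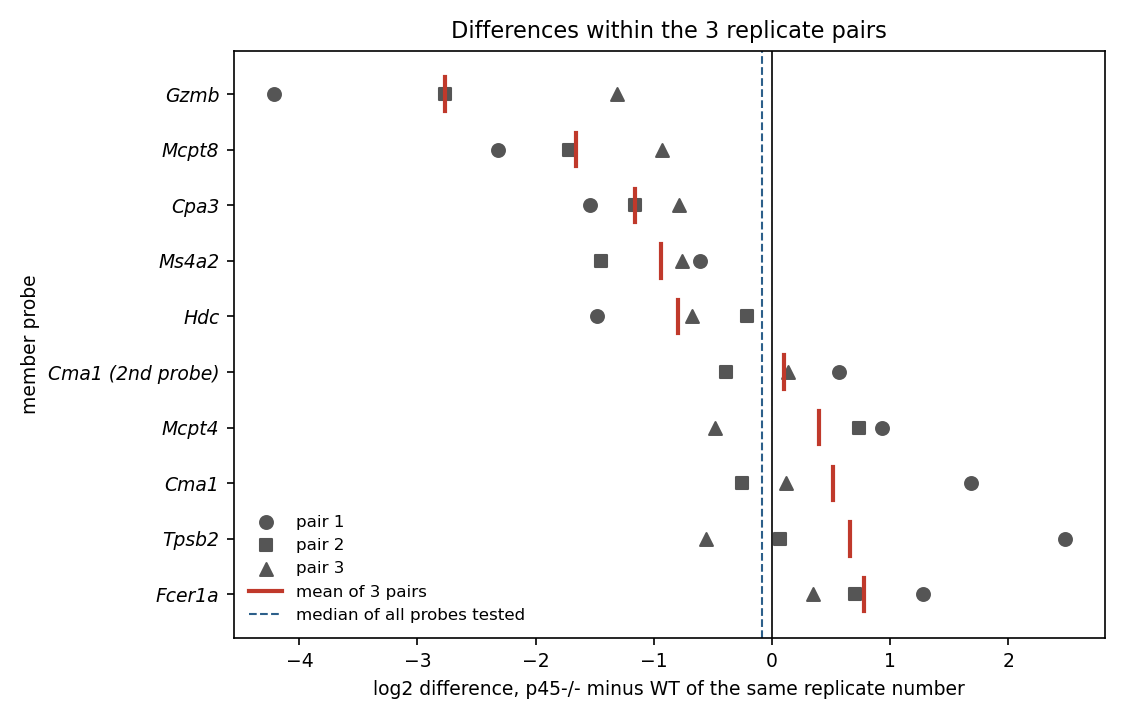
Log2 difference between the p45-/- and the WT array of the same replicate number (horizontal axis) for each member probe (vertical axis), with circles, squares and triangles for pairs 1, 2 and 3, a red bar for their mean and a dashed line for the median of all probes tested, -0.086. Gzmb, Mcpt8, Cpa3, Ms4a2 and Hdc lie left of 0 in all pairs and Fcer1a right of 0, while both Cma1 probes, Mcpt4 and Tpsb2 straddle it.

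The mast cell chymases varied more with the replicate number than with the genotype, and the tryptase mostly with neither. Cma1 encodes a chymase of connective tissue mast cells and had 2 probes for the same transcript (NM_010780). The brighter one stood at -1.47, 0.58 and 0.80 on p45-/- arrays, against -3.16, 0.83 and 0.68 on WT arrays. The second stood at -5.31, -1.26 and -1.03 on p45-/- arrays, against -5.88, -0.87 and -1.16 on WT arrays, and was not well above background on either replicate 1 array. Both probes were thus far lower in replicate 1 than in replicates 2 and 3, in p45-/- and in WT alike. The brighter probe's mean was -0.030 ± 1.25 in p45-/- and -0.55 ± 2.26 in WT (SD, n = 3 each), a difference of 0.52 (SE 1.18, limma adjusted p = 0.882) that was -0.064 without replicate 1 of both groups, -0.78 without WT array 1 and 1.24 without p45-/- array 1. The second was outside the filter, and its difference of 0.11 was below 0 under median scaling (-0.41) and quantile normalization (-0.35).

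Mcpt4 encodes another connective tissue mast cell chymase. Its levels were -4.31, -1.31 and -2.79 on p45-/- arrays, against -5.24, -2.04 and -2.31 on WT arrays (NM_010779). Both replicate 1 values were not well above background, so the probe was not tested. The mean difference of 0.40 was -0.11 under both median scaling and quantile normalization, -0.63 without WT array 1 and 1.15 without p45-/- array 1, and pair 3 differed by -0.48 against 0.93 and 0.74 in pairs 1 and 2.

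Tpsb2 encodes a tryptase of connective tissue mast cells. Its levels were -2.66, -4.06 and -4.50 on p45-/- arrays, against -5.15, -4.13 and -3.95 on WT arrays (NM_010781), all far below the array percentile. The first p45-/- array was the highest of all 6 and the first WT array the lowest, and that WT value was not well above background. The difference of 0.66 (SE 0.57, limma adjusted p = 0.725) rests on pair 1, at 2.48, since pairs 2 and 3 differed by 0.067 and -0.56. Without replicate 1 of both groups it was -0.24.

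The variation of each probe over the 6 arrays was divided into a share between replicate numbers, a share between genotypes and the rest. Replicate numbers held 89.4% and 99.1% of the variation of the Cma1 probes and 92.5% of that of Mcpt4, against 2.95%, 0.061% and 2.14% for genotype. For Cpa3, replicate numbers held 73.7% and genotype 24.5%. Genotype held 51.0% for Gzmb, 46.3% for Fcer1a, 45.2% for Mcpt8, 33.0% for Ms4a2 and 29.4% for Hdc. Over all probes tested, the median share was 52.3% for replicate number and 19.1% for genotype. With 3 replicate numbers against 2 genotypes, replicate number tends to hold the larger share even where neither has an effect. These medians thus do not rank replicate number above genotype. Tpsb2 had 3.08% and 19.8%, and most of its variation lay in neither.

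**Figure D3:**
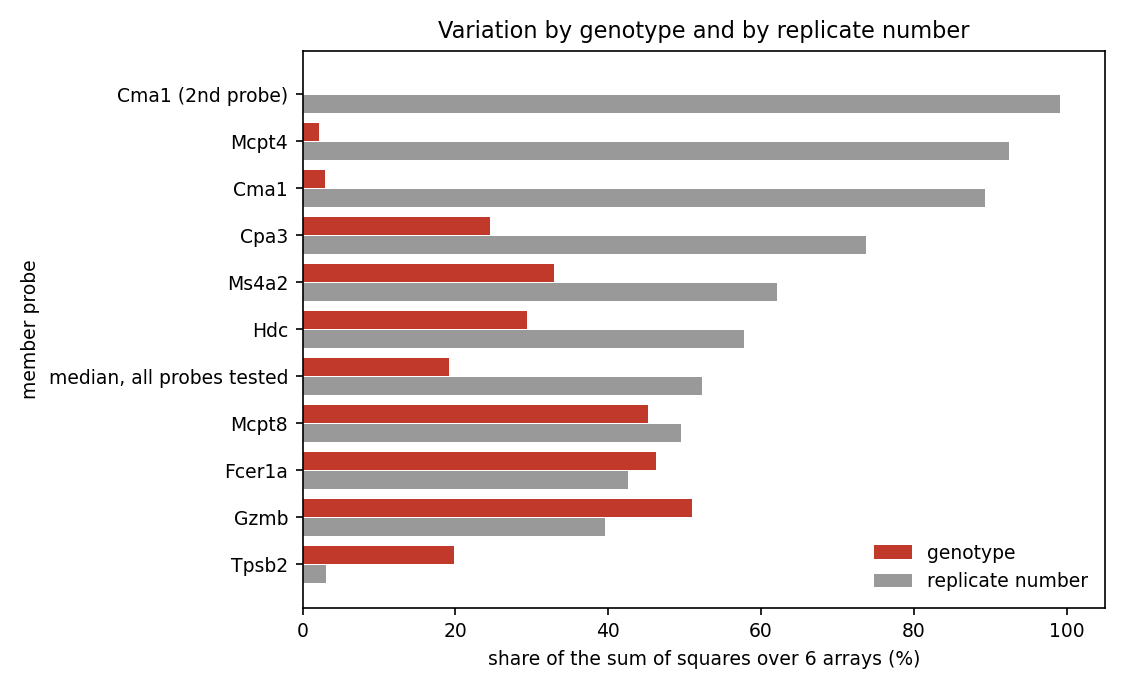
Share of each member probe's variation (sum of squares over the 6 arrays, in percent, horizontal axis) that lies between the 2 genotypes (red bars) and between the 3 replicate numbers (grey bars), with the medians over all probes tested. Grey bars reach 89.4% to 99.1% for the Cma1 probes and Mcpt4, the red bar is longest for Gzmb, at 51.0%, and both are short for Tpsb2.

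Expression also ranged more widely over the 6 arrays than for most probes. The highest array was 53.6-fold above the lowest for Gzmb, 32.1-fold and 15.9-fold for the Cma1 probes, 15.3-fold for Mcpt4 and 13.3-fold for Mcpt8. It was 5.59-fold for Tpsb2, 4.61-fold for Ms4a2 and Hdc, and 3.70-fold for Fcer1a, the narrowest among the members, and the median over all probes tested was 2.53-fold. Where a low value was not well above background, such a range depends on a value that has only a bound.

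Because the replicate numbers were taken to pair the arrays, from the data and not from the labels, the fit was repeated with the number as a block. It called 43 probes lower (0.179%) and 30 higher (0.125%), and no member. The members closest to the threshold were Gzmb, at a limma adjusted p of 0.101, Mcpt8 at 0.108 and Cpa3 at 0.124. Ms4a2 had 0.173, Fcer1a 0.241 and Hdc 0.275. With the block, 6.67% of the probes tested were lower and 12.8% higher at an unadjusted p below 0.05, and 5 member probes were among them, Gzmb, Mcpt8, Cpa3 and Ms4a2 lower and Fcer1a higher. When median scaling was combined with the block, a setting added after the data were seen, limma called Gzmb (-3.27, adjusted p = 2.0e-08), Mcpt8 (-2.17, adjusted p = 8.5e-04), Cpa3 (-1.67, adjusted p = 0.0154) and Ms4a2 (-1.45, adjusted p = 0.0450). That scaling moved the median of all probes tested to -0.60, against -0.086, and called 2037 probes in all. The block with quantile normalization, added at the same time, called 0 probes and 0 members in limma, with adjusted p of 0.389 for Gzmb, 0.365 for Mcpt8, 0.389 for Cpa3 and 0.359 for Ms4a2.

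Within the slide of replicates 1 and 2, the differences were -3.49 for Gzmb, -2.02 for Mcpt8, -1.35 for Cpa3, -1.02 for Ms4a2, -0.85 for Hdc and 0.99 for Fcer1a. Within the slide of replicate 3, which held 1 array of each group, they were -1.31, -0.93, -0.78, -0.76, -0.68 and 0.35 in the same order. As 1 slide held pair 3 and the other pairs 1 and 2, these values restate the pair differences. The 6 genes had 1 sign in all 3 pairs, so their shared direction on both slides follows from that and is no further support. Tpsb2 changed sign between the slides, at 1.27 and -0.56, and so did Mcpt4, at 0.84 and -0.48.

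Ratios between 2 members on the same array do not depend on how arrays are scaled. The pairs were chosen after the values had been seen, so the ratios are described without a test, and only their difference between arrays has a meaning. The log2 ratio of Ms4a2 to Fcer1a, beta over alpha chain, was -1.10, -0.95 and 0.17 on p45-/- arrays, against 0.78, 1.20 and 1.28 on WT arrays. Every p45-/- ratio was below every WT ratio, by -1.72 in the mean. Since Fcer1a itself was higher in p45-/-, 46.1% of all probes tested had such a ratio to Fcer1a, so the separation is not particular to Ms4a2. With normexp correction, the difference of this ratio was -0.73. Its value on p45-/- array 1 rests on an Ms4a2 value that was not well above background.

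Mcpt8 relative to Cma1, a basophil over a mast cell protease, was 1.75, 1.20 and 2.29 on p45-/- arrays, against 5.75, 2.67 and 3.34 on WT arrays, a difference of -2.17. Cpa3 relative to Cma1 was 0.45, 0.66 and 0.75 on p45-/- arrays, against 3.68, 1.57 and 1.66 on WT arrays, a difference of -1.68. Both ratios use the brighter Cma1 probe. Neither overlapped between the groups, which held for 1.5% of the probes tested when set against that probe. Set against the second Cma1 probe, both ratios overlapped, with p45-/- array 1 above WT array 2. The second probe was not well above background on either replicate 1 array. WT array 1, where Cma1 was dimmest, gave the highest value of both ratios, and without it the differences were -1.26 and -0.995. Cma1 relative to Mcpt4 overlapped, with a difference of 0.12. Gzmb relative to Mcpt8 differed by -1.11, and by 0.41 with normexp correction. Its groups were barely apart, at -3.53 on p45-/- array 3 against -3.47 on WT array 2. The share of all probes apart when set against Mcpt8 was not computed, so nothing is read from this separation. The ratio on p45-/- array 1 also rests on a Gzmb value that was not well above background.

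**Figure D4:**
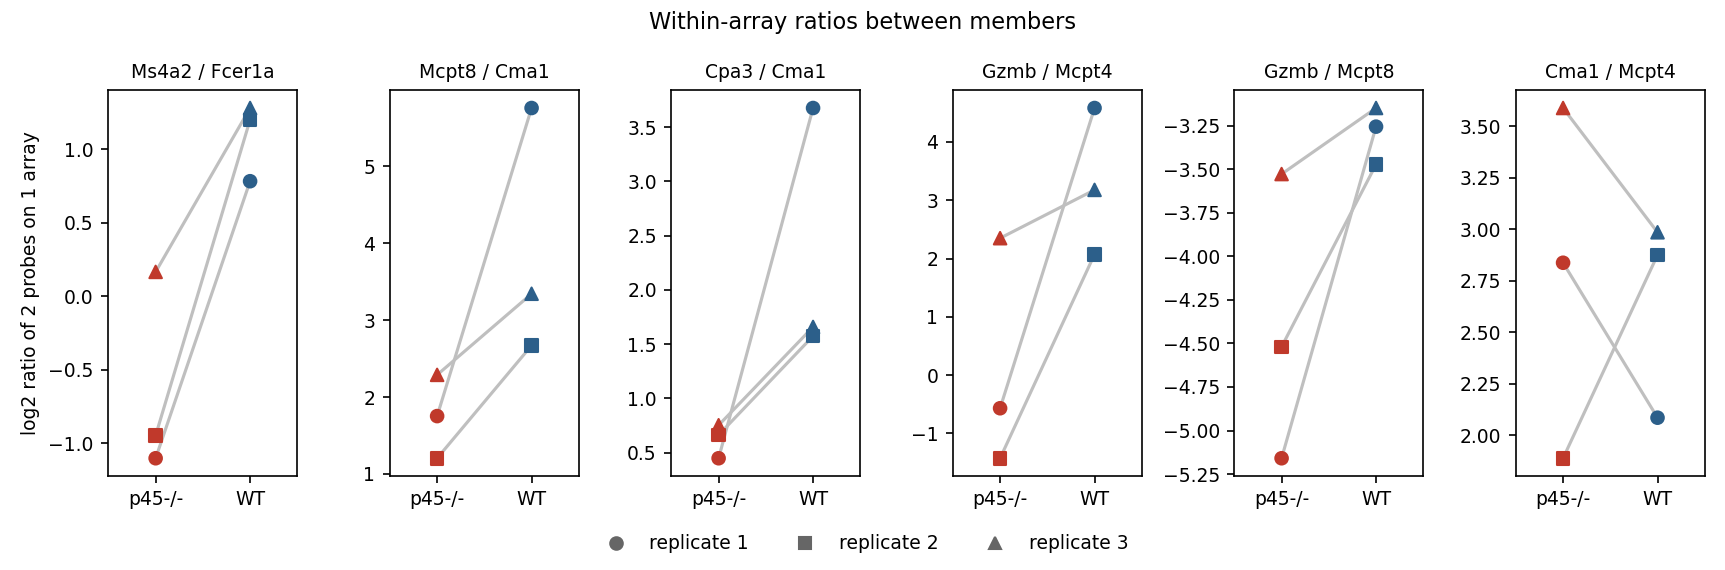
Log2 ratio of 2 member probes on the same array (vertical axis), for 6 pairs of probes, with p45-/- arrays at the left and WT arrays at the right of each panel and lines joining the same replicate number. The ratios of Ms4a2 to Fcer1a and of Mcpt8 and Cpa3 to the brighter Cma1 probe do not overlap between the groups. By a narrow margin, neither does that of Gzmb to Mcpt8. Those of Gzmb and Cma1 to Mcpt4 overlap.

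Related genes were examined in 7 lists, of which the first, the chromosome 14 cluster, holds Gzmb, Mcpt8 and Cma1 among its tested genes. No gene of these lists was called by limma, with or without the block. The cluster had 7 tested genes, these members included, 5 lower and 2 higher, with a median difference of -1.09 that was 0.066 with normexp, where 3 of 7 were lower. The -1.09 is the value of Gzmc. Both Gzmc and Gzmb passed the filter on dim probes only through their WT arrays, so the filter itself favours lower values in this count and median. Ctsg, for cathepsin G, an abundant neutrophil and monocyte granule protease, averaged 5.44 ± 0.27 in p45-/- and 6.70 ± 0.25 in WT (SD, n = 3 each), a difference of -1.26 (limma adjusted p = 0.492) without overlap. Gzmc, a cytotoxic cell granzyme, differed by -1.09 with overlap, and the chymase-like genes Cma2 and Mcpt2 by 0.41 and -0.25. The 6 genes Gzmd, Gzme, Gzmf, Gzmg, Gzmn and Mcpt9 were not well above background on any array.

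Among 11 other granule proteases and inhibitors tested, 7 were lower and 4 higher, with a median of -0.023 that was 0.076 without p45-/- array 1 and -0.53, with 11 of 11 lower, under median scaling. Prss34, a basophil protease, differed by -1.24, and Ctsc, which activates granule serine proteases by trimming them, by -0.87. The granule matrix and amine list, with 9 tested genes, had a median of 0.44, which was -0.07 under median scaling and -0.022 under quantile normalization. Srgn, for serglycin, differed by -0.91. Slc18a2, the vesicular monoamine transporter that loads histamine and serotonin into granules, was higher in p45-/-, by 1.34 with overlap.

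IgE receptor signalling genes were lower in 15 of 16, with a median of -0.79, and 8 of them did not overlap between the groups, where 8.95% of all probes tested did so in that direction. The count was 12 of 16 without p45-/- array 1, 13 of 16 under quantile normalization and normexp, and 16 of 16 under median scaling. Prkcd, a protein kinase C, averaged 1.84 ± 0.26 in p45-/- and 3.32 ± 0.21 in WT (SD, n = 3 each), a difference of -1.47 (limma adjusted p = 0.380). Btk, a cytoplasmic tyrosine kinase, differed by -1.17, Ms4a3 by -0.92 and Pik3cd, a phosphoinositide kinase subunit of leukocytes, by -0.83, all without overlap. Many of these genes are also expressed by megakaryocytes or other blood cells.

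Among growth factor receptors and surface molecules, 11 of 14 were lower, with a median of -0.58 (8 of 14 under normexp, 10 of 14 without p45-/- array 1), and 5 did not overlap (8.95% of all probes tested). Cd200r3, a receptor found on basophils and mast cells, differed by -1.90, Itgb7, an integrin of mast cell progenitors, by -1.10, Csf2ra, the GM-CSF receptor alpha chain, by -1.08 and Il3ra, the interleukin-3 receptor alpha chain, by -0.73, all without overlap. Cd200r3 was well above background on 3 WT arrays but on only 2 p45-/- arrays. It thus passed the filter only through WT, and its p45-/- mean includes a value that is only a bound. Kit was not found on the array by name. All 14 transcription factors tested were lower, with a median of -0.60, and 5 did not overlap, where 8.95% of all probes tested did so. Without p45-/- array 1, 12 of the 14 were lower, with a median of -0.34, and 12 of 14 were lower under quantile normalization and 13 of 14 under normexp. Gata2, required for mast cell and basophil development, averaged 1.23 ± 0.47 in p45-/- and 3.21 ± 0.57 in WT (SD, n = 3 each), a difference of -1.98 with a limma adjusted p of 0.407, and of 0.0567 with the replicate block. Cebpb differed by -1.48, Lmo2 by -0.64 and Hes1 by -0.52. Lipid mediator and cytokine genes went both ways, 8 lower and 7 higher of 15 (12 lower under median scaling), and Alox5ap, which presents arachidonate for leukotriene synthesis, had the smallest unadjusted p among them, at a difference of -1.58 (limma adjusted p = 0.349). Of the others, Tnf differed by -0.76, the prostaglandin synthase gene Ptgs1 by -0.77 and the cytokine gene Il4 by -0.66.

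**Figure D5:**
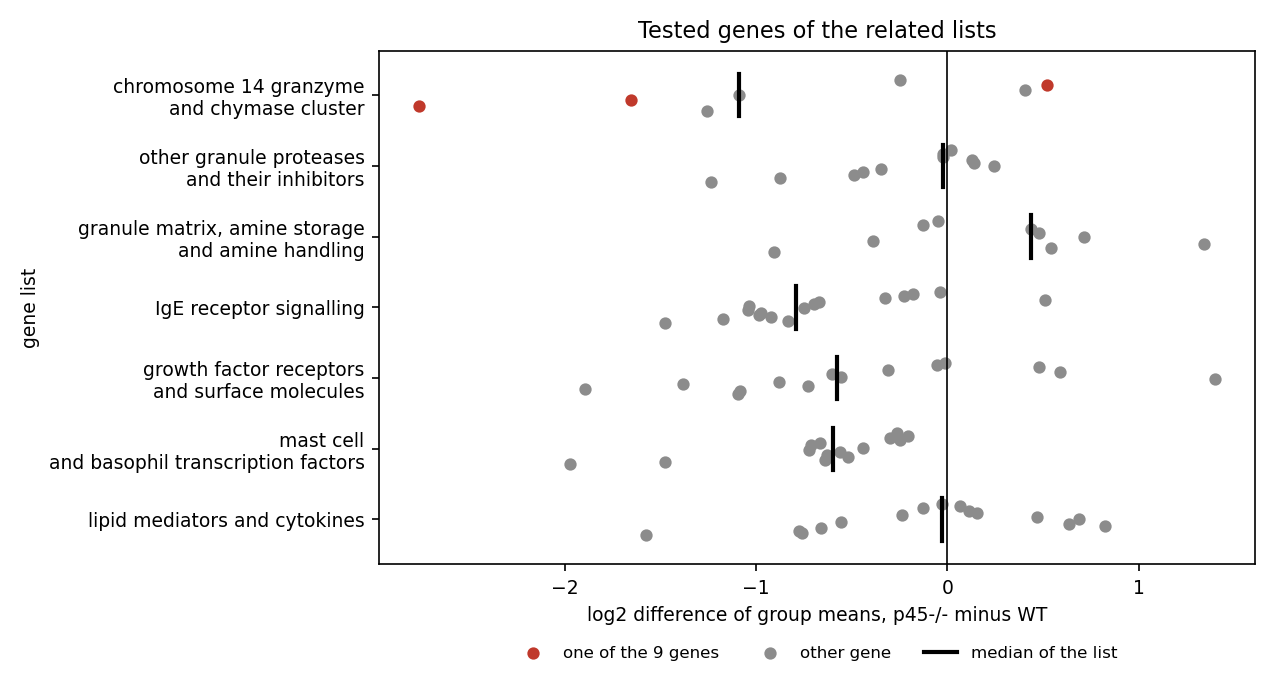
Log2 difference, p45-/- minus WT (horizontal axis), of each tested gene in 7 lists of related genes (vertical axis), with members in red, other genes in grey and a black bar at each list's median. All transcription factors and 15 of 16 IgE signalling genes lie below 0 (12 of 14 and 12 of 16 without p45-/- array 1), while granule matrix and mediator genes lie on both sides.

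Markers of other cell types that such cultures could hold differed as well. Summed levels, in multiples of the array percentile, were 6.97, 25.6 and 23.0 for mast cell markers on p45-/- arrays, against 17.1, 45.6 and 38.1 on WT arrays. Of these sums, Gata2 made up 1.61, 2.82 and 2.85 on p45-/- arrays and 5.98, 13.1 and 10.0 on WT arrays. Rab27b made up 1.32, 5.76 and 6.00 on p45-/- arrays and 3.11, 11.7 and 12.3 on WT arrays, so the sums depend much on these non-members. The mast cell list holds 7 of the members, and its 11 tested genes were 7 lower and 4 higher. Mrgprb1 and Mrgprb2, receptors of connective tissue mast cells, were not well above background on any array. Basophil markers summed to 28.8, 153.8 and 117.0 on p45-/- arrays, against 54.0, 84.5 and 83.7 on WT arrays, and Csf2rb alone made up 23.3, 140.8 and 101.7 of the p45-/- sums and 38.6, 57.3 and 55.7 of the WT sums. Of the 11 basophil markers tested, 9 were lower in p45-/-, and 4 of the list's 12 are members.

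Neutrophil markers were lower in the mean in 10 of 10, where 56.9% of all probes tested were. Their sums were 1045, 721 and 539 in p45-/- and 1274, 1057 and 703 in WT. S100a9 alone made up 682, 416 and 299 of the p45-/- sums and 645, 417 and 318 of the WT sums. It counts among the 10, at a difference of -0.0032. Natural killer and cytotoxic T cell markers, of cells that also hold granzyme B, summed to 2.56 to 2.73 in p45-/- and 2.21 to 3.51 in WT. Only 4 of those 12 were tested, and Gzma, Eomes, Ncr1 and Klrb1c were not well above background on any array. Erythroid markers were higher in 11 of 11, where 43.1% of all probes tested were higher in the mean. Their sums were 141 to 1002 in p45-/- and 103 to 368 in WT. Hba-a1, whose groups overlap, made up 900, 146 and 84.8 of the p45-/- sums and 346, 116 and 87.3 of the WT sums. With the replicate block, 2 were called higher, Trim10 and Ermap, where 0.125% of all probes tested were. Ermap and Epb42 passed the filter on dim probes only through their p45-/- arrays, which favours higher values in these counts. Megakaryocyte markers were lower in 12 of 14, with a median of -0.48, where 56.9% of all probes tested were lower in the mean. With the block, 2 were called lower, Gp6 and Clec1b, at -6.09 and -4.53, where 0.179% of all probes tested were. Eosinophil markers were lower in the mean in 8 of 8, with sums of 64.7 to 150.01 in p45-/- and 117 to 179 in WT. However, 0 of them were lower in all 3 pairs, and their median difference was -1.25, -0.30 and 0.27 in pairs 1, 2 and 3. Macrophage markers were lower in 4 of 8, with 118 to 167 in p45-/- and 98.6 to 224 in WT. Hepatoblast markers were lower in the mean in 0 of 8, with 53.0 to 183 in p45-/- and 42.2 to 72.2 in WT. Only 2 of these 8 were higher in all pairs, and the median difference of the hepatoblast list was -0.17, 1.35 and 1.93 in pairs 1, 2 and 3. The part of these cell types in the members' values was not tested.

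Over the 6 arrays, which share scaling and replicate numbers, Gzmb and Mcpt8 had a Pearson r of 0.991, Cma1 and Mcpt4 of 0.926, and Gzmb and Mcpt4 of 0.238. Ms4a2 followed Cpa3 at 0.948, while Fcer1a and Ms4a2 stood at 0.080. These are descriptions of 6 points. The 5 genes outside the set whose profiles were most like the mean of the tested members were Nckap1, Acsl3, Mlec, Itga6 and Tpcn1, with r between 0.997 and 0.999. As 1126 of 12934 genes (8.71%) had r above 0.9, a high value is common here.

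Taking all 9 genes, the median difference was -0.79, against -0.086 over all probes tested. The median of the 9 differences was -0.61, -0.25 and -0.68 in pairs 1, 2 and 3, against -0.40, 0.075 and 0.043 over all probes. With 5 genes lower and 4 higher, and 56.9% of all probes lower in the mean, the count of directions was near the background.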

How the data were processed

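Total RNA of 6 samples was labelled with Cy3 and hybridised to single-colour Agilent arrays, per the labels' protocols. The authors' deposited intensity was background-subtracted and detrended, per the file headers, by Agilent Feature Extraction 10.7.3.1 (10.1 in the submitters' processing notes), linear and not scaled between arrays. The authors' deposited value table holds the same intensity to within 0.497%, uncentred, with column medians of 20.9 to 42.0.

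Control spots were left out, flagged spots set missing, and log2 values averaged per probe and centred on each array's 75th percentile. A probe was tested if every array of 1 group or the other showed it well above background, using limma 3.58.1 in R 4.3.3 (lmFit, eBayes, two-sided, Benjamini-Hochberg adjustment, threshold 0.05, no block). The script was tested on simulated data. Accessions were named through RefSeq tables of GRCm38.p6, which gave 26690 of 41174 probes a symbol. Where a gene had several probes, counts used the one with the highest mean level. Differences are p45-/- minus WT.

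Deviations of same-numbered arrays from their group means correlated at 0.638, 0.573 and 0.296, all above 0.1, so the numbers were taken to pair samples, from the data and not from the labels, although p45-/- array 3 correlated more with WT array 2, at 0.591. Nothing in the labels says how the replicates were separated beyond their numbers, so p-values measure the spread between these samples.

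The members and lists were chosen with earlier results of these data known. From each list, up to 4 non-members with the smallest unadjusted p are named, and the 5 genes most like the members' mean profile. Alternatives were replicate or slide as a block, within-slide values, normexp (offset 50, on median signals because the files hold no mean signal), quantile normalization, median scaling, the value table, no filter, kept flagged spots, 1 probe per gene, array weights and left-out arrays.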

Additional observations from a re-analysis of the deposited data

How the results depend on the processing

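No member probe was called under the alternatives listed under processing. The number of probes called over the whole array was 0 as reported and 73 with the replicate block (30 higher, 43 lower), 13 with median scaling, 1296 with array weights, 0 to 1 when 1 array was left out, 21 without replicate 1 of both groups, and 2037 with the block and median scaling together, a setting chosen after seeing the data that also called 4 member probes. The block with quantile normalization, chosen at the same time, called 0 probes and 0 members. The replicate block on its own changed no call of a member. When arrays were left out, the difference of Cma1 ranged from -0.78 (without WT replicate 1) to 1.24 (without p45-/- replicate 1) and was -0.064 without replicate 1 of both groups. That of Tpsb2 ranged from -0.24 (without replicate 1 of both groups) to 1.04 (without p45-/- replicate 3) and was -0.27 with array weights. The causes were not tested. The median of the 9 genes, -0.79, was -1.30 with median scaling, -0.66 with quantile normalization, -0.0069 with normexp and between -0.96 and -0.30 when 1 array was left out. Median scaling moved the median of all probes tested to -0.60. Precision is limited by the number of arrays: 3 against 3 leaves 4 residual degrees of freedom, and 2 with the block.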

Other observations

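Mcpt1, a chymase of mucosal mast cells that lies beside the members on chromosome 14, is outside the set and was picked after its values were seen. Its levels were -5.99, -1.03 and -3.23 on p45-/- arrays, against -7.00, -2.24 and -2.65 on WT arrays. It was not well above background on either replicate 1 array, as was the case for Mcpt4 and the second Cma1 probe. Il1rl1, the interleukin-33 receptor that mast cells and basophils carry, averaged -0.31 in p45-/- and 1.08 in WT, a difference of -1.38 with overlap (limma adjusted p = 0.709).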
